A study of Mus musculus with 6 samples.

Results

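Transcripts for the pre-T cell receptor (pre-TCR) and for its CD3 signalling complex were examined in sorted double negative thymocytes of wild type mice and of mice labelled as Egr1/Egr3 double knockouts. The members are Ptcra, the CD3 chain genes Cd3d, Cd3e, Cd3g and Cd247, the kinase genes Lck and Zap70, and the adaptor genes Lat and Lcp2. All probe sets whose single gene symbol in the platform annotation is one of these were taken. This gave 14 probe sets for 8 of the 9 members, out of 45037 probe sets and 18193 named genes. No probe set carries the symbol Lck in the annotation used here, so Lck was not analysed here. Per the labels, 3 single-colour arrays are of wild type and 3 of double knockout thymus. The titles do not say whether an array holds RNA of 1 animal or of a pool. The sources used here give no strain, sex, age or kind of allele. Sample descriptions speak of cells sorted by flow cytometry as double negative, whereas the titles and the source name give whole thymus. Every title also gives amplified mRNA. Values are linear intensities, and a change is double knockout minus wild type in mean log2 of intensity plus 16. A change was called at a limma adjusted p under 0.05, adjusted over the 27022 probe sets tested.

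Double negative thymocytes are T cell precursors that carry neither CD4 nor CD8. Once the T cell receptor beta chain gene is rearranged, the beta chain pairs with the invariant pre-TCR alpha chain, encoded by Ptcra, and this pair sits in the membrane with the CD3 gamma, delta and epsilon chains and the zeta chain encoded by Cd247. LCK phosphorylates the tyrosine motifs of the CD3 and zeta chains, ZAP-70 docks on them, and ZAP-70 then phosphorylates the adaptors LAT and SLP-76, the product of Lcp2. This signal drives the checkpoint called beta selection, and EGR transcription factors are among the genes it induces. Ptcra is known as a gene of the immature stages that is shut off later, whereas the CD3 chains, ZAP-70, LAT and SLP-76 are used by mature T cells too.

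Array medians lay between 19.9 and 23.1, and the brightest of 27 bacterial control probe sets read 19.0 to 29.9. The remaining control probe sets were not counted for this level. The single Egr1 probe set was higher, not lower, on the arrays labelled double knockout (508, 509 and 455 against 1757, 1696 and 1221), and the sources used here do not place it relative to the disrupted part of the gene. The brighter Egr3 probe set gave 92.2, 83.1 and 30.8 in wild type and 34.4, 45.8 and 32.9 in double knockout replicates. These groups overlapped, with a change of -0.59 (SE 0.32, adjusted p = 0.368), and the other Egr3 probe set had a change of -0.07. Directions are therefore stated for the arrays by their labels. Among markers of double negative thymocytes, 12 of 13 were named on the array, and their summed intensity was 33536 to 37103 on wild type arrays and 20385 to 21890 on the others, with Ptcra, Il2ra and Dntt called lower. Dntt, Thy1, Bcl11b and Ptcra itself make up most of that sum. The Dntt call was lost without any 1 array other than wild type replicate 3 (adjusted p up to 0.159). Its other probe sets had changes of -0.44 and -0.84, which did not pass. The Il2ra call was lost without wild type replicate 2 or double knockout replicate 1 or 2 (adjusted p up to 0.0694). Not every marker of the list pointed down: Cd2, Kit and Cd44 had changes of 0.98, 0.89 and 0.71, which did not pass. Of 4 named markers of double positive thymocytes, the next stage, Cd4 lay under the brightest control on all 6 arrays, while Cd8a, Cd8b1 and Cd1d1 lay above it on all 6. Their summed intensity was 1505 to 2691 against 2396 to 3961, mostly from Cd1d1, and none of the 3 tested was called by limma (changes -0.51, 0.02 and 0.90, of which Cd1d1 had an unadjusted p under 0.05). Wild type replicate 3 stood apart: the summed intensity of 8 granulocyte markers was 304 there and 11397 to 27582 on the other 5 arrays. The sum of 2 erythroid markers was 3181 there, mostly Alas2, and 16.8 to 334 on the others. For stroma markers the sum was 1920 there, 358 and 677 on the other wild type arrays, and 1028 to 3027 on the arrays labelled double knockout. Of 6 tested natural killer cell markers, 3 were higher on the arrays labelled double knockout (Klrd1, Nkg7 and Gzmb), with a summed intensity over 7 markers of 11972 to 16399 against 15215 to 15887. Gzma made up most of that sum, with a change of -0.08 (adjusted p = 0.871). Tyrobp and Fcer1g had changes of 1.08 and 0.77, which did not pass. The Klrd1 call was lost without double knockout replicate 1 (adjusted p = 0.0535). Among the 7 markers, Ncr1 was at or under the brightest control on all 6 arrays. Summed markers of gamma-delta T cells were 796 to 1374 against 1972 to 2422, but nearly all of the sum is Cd163l1, the 1 marker of 3 called higher. The Cd163l1 call was lost without double knockout replicate 1 or 3 (adjusted p up to 0.0906). The other markers, Sox13 and Blk, had changes of -0.97 and -0.33, which did not pass. Those of mature T cells were 289.8 to 468 against 489 to 648 (Klf2 higher among 4 tested), and those of B cells 858 to 1466 against 2022 to 2280.0 (Cd79b higher among 4 tested). The Klf2 call was lost without wild type replicate 1 or 2 or double knockout replicate 1 or 3 (adjusted p up to 0.092). The B cell sum was carried by Cd79b, whose call was lost without any 1 array other than wild type replicate 3 (adjusted p up to 0.174). The other tested B cell markers, Cd79a, Ms4a1 and Pax5, had changes of -0.60, -0.15 and -0.02. The actin ratio of 3′ to 5′ probe sets was 5.55 to 8.94 against 4.98 to 6.35. For Gapdh it was 4.83 to 10.1 against 4.95 to 8.56. Such ratios are read as a sign of RNA quality, but the mRNA of all arrays was amplified, and amplification was not separated from quality. Wild type replicate 1 had the highest ratio of both (8.94 and 10.1). The part of other cells, of RNA quality and of mRNA amplification in the results was not tested. In such bulk samples, fewer cells of a type and less RNA per cell cannot be told apart.

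Ptcra was the single member that passed the test. Its probe set read 4344, 4154 and 5145 on wild type replicates 1, 2 and 3, and 1195, 1056 and 1469 on double knockout replicates 1, 2 and 3. The groups did not overlap, and the lowest wild type array was well above the highest array labelled double knockout. Ptcra fell by 1.89 on the log2 scale (SE 0.22, 95% interval -2.36 to -1.41, n = 3 and 3, adjusted p = 0.000634), and its mean intensity was 3.67-fold lower. The fall lay between -2.02 and -1.76 when any 1 array was left out, with an adjusted p of at most 0.00899. Without wild type replicate 3, the array nearly free of granulocyte transcripts, it was -1.80 (adjusted p = 0.000363).

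**Figure D1:**
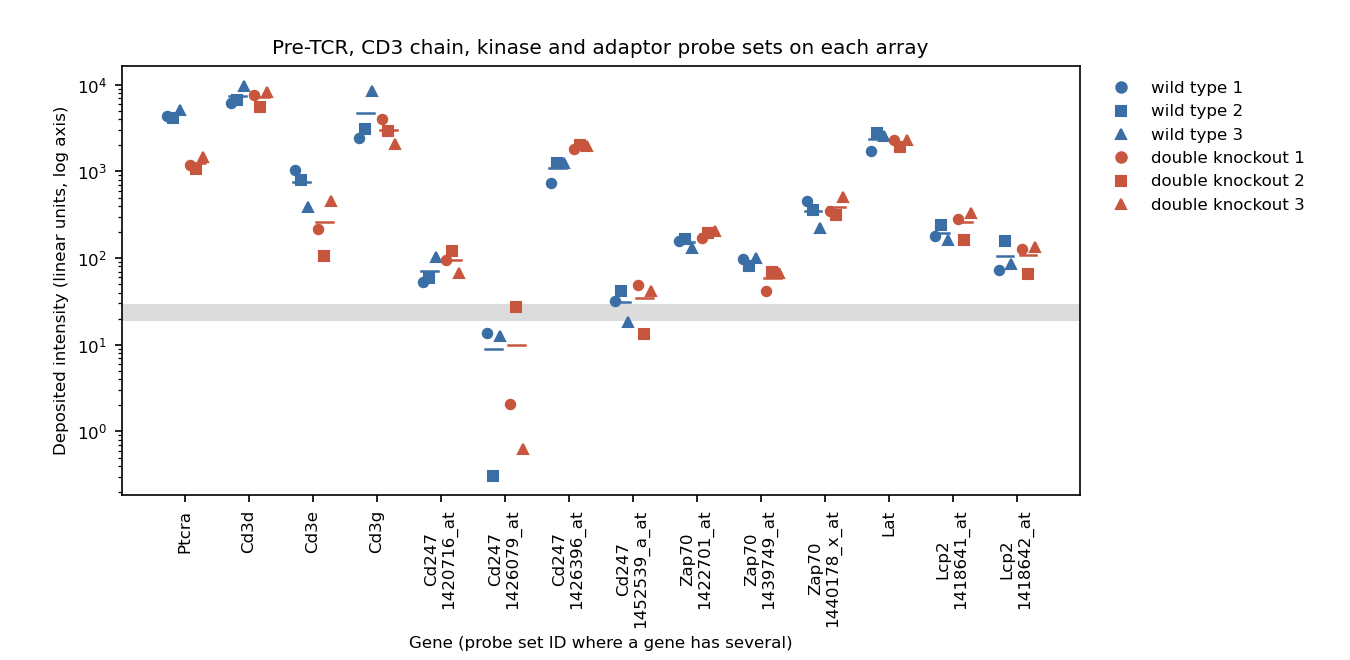
Deposited intensity (log axis) of the 14 member probe sets on each of the 6 arrays, with horizontal lines at group means and a grey band at the range of the brightest bacterial control (19.0 to 29.9). Ptcra is clearly separated between the groups (4154 to 5145 against 1056 to 1469), while the Cd3d, Cd3g, Lat and Lcp2 points of the groups intermingle.

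The stretches just upstream of the annotated starts of Ptcra and of the CD3 genes of the chromosome 9 cluster are shown. Ptcra was called lower and these CD3 genes were not, but Cd3e had a change of -1.59 that did not pass (adjusted p = 0.0797). Relative to Cd3e, Ptcra differed by -0.29 and the groups overlapped, so Ptcra and Cd3e are not shown to differ. Bases that lie inside an annotated gene span were left off, which shortened Cd3d to 233 and Cd3e to 198 bases. Sequences are from RefSeq (GRCm38.p6), 5′ to 3′ on the strand of the gene. They come from chr17:46763713-46763962 (minus strand) for Ptcra, chr9:44980432-44980681 (minus) for Cd3g, chr9:44981536-44981768 (plus) for Cd3d and chr9:45009664-45009861 (minus) for Cd3e. Capitals mark E-boxes of the letters CAGCTG or CACCTG on either strand, the kind of site that E proteins, known activators of Ptcra, bind.
Ptcra: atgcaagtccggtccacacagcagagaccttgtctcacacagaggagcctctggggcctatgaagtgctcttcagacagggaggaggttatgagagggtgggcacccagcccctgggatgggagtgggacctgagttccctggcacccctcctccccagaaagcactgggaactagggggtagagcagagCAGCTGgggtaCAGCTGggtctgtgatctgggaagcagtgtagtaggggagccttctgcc
Cd3g: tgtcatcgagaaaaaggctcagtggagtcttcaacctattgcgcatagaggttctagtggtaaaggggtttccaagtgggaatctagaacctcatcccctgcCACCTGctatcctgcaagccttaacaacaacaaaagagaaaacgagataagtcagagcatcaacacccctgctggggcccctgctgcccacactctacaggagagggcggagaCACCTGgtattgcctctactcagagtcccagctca
Cd3d: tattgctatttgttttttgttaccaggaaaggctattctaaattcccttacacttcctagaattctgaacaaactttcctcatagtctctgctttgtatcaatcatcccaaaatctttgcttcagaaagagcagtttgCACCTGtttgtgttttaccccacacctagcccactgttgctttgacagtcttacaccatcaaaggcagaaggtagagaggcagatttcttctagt
Cd3e: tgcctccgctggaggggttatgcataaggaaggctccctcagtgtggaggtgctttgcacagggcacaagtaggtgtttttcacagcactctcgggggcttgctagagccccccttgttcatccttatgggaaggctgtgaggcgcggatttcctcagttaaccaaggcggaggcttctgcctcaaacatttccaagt
The Ptcra stretch holds CAGCTG at 2 places, beginning 60 and 49 bases before the start, and no CACCTG. Cd3g holds CACCTG at 2 places and Cd3d at 1, while Cd3e has neither E-box in its 250 bases. The window of Lcp2, which was not called, also holds CAGCTG, at 1 place. Of 32851 RefSeq promoters cut to the same 250 bases, 4271 hold CAGCTG and 17.2% hold CACCTG or its reverse, CAGGTG. Neither of the EGR letters searched, GCGTGGGCG and GCGGGGGCG (both strands), was found in the windows of any of the 9 members, and 3.06% of all promoters hold 1 of them. The letters TGGGAA or TTCCCA, the core bound by the Notch partner CSL, were found at 2 places in Ptcra and in 21.6% of all promoters. ETS letters (AGGAAG) and RUNX letters (TGTGGT or TGCGGT), both strands, were not in the Ptcra window, and 29.5% and 18.6% of all promoters hold them. These matches describe letters only, and binding was not measured.

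The CD3 chains did not move together. Cd3d, the delta chain, was among the brightest members, at 6121, 6601 and 9805 in wild type replicates 1 to 3 and at 7539, 5510.5 and 8357 in the double knockout ones. The groups overlapped throughout, and the change was -0.08 (SE 0.24, 95% interval -0.60 to 0.44, adjusted p = 0.897). Cd3g, the gamma chain, read 2443, 3118 and 8474 against 3989, 2939.6 and 2086. Wild type replicate 3 was 3.47-fold above the lowest wild type array and the other 5 arrays lay within 2086 and 3989. Its change was -0.48 (SE 0.40, interval -1.36 to 0.39, adjusted p = 0.581) and 0.04 (adjusted p = 0.944) without wild type replicate 3. For neither gene did the direction hold when single arrays were left out.

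Cd3e, the epsilon chain that pairs with both gamma and delta, had the lowest values on double knockout replicates 1 and 2. Wild type intensities were 1052, 802 and 388, and those labelled double knockout were 216, 106 and 454. The groups overlapped through wild type replicate 3 and double knockout replicate 3. The change was -1.59 (SE 0.47, 95% interval -2.63 to -0.56) and did not pass (adjusted p = 0.0797). Leaving out wild type replicate 3 brought it past the threshold (-2.01, adjusted p = 0.0115), as did leaving out double knockout replicate 3 (-2.09, adjusted p = 0.0342). Without any other single array it did not pass (adjusted p up to 0.257). The spread within a group was large, since the highest array labelled double knockout was 4.28-fold above the lowest.

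Cd247, the zeta chain with the most tyrosine motifs of the complex, pointed the other way on its brightest probe set. That probe set (1426396_at) gave 736, 1264 and 1242 in wild type replicates 1 to 3, and 1819, 2003 and 1964 in double knockout replicates 1 to 3. The groups did not overlap, and the arrays labelled double knockout lay within 1.10-fold of each other. The change of 0.85 (SE 0.26, 95% interval 0.28 to 1.42) did not pass (adjusted p = 0.0891). Leaving out wild type replicate 3 brought it past the threshold at 0.96 (adjusted p = 0.0334). A second tested probe set (1420716_at) read 52.5, 59.6 and 102 against 93.9, 121 and 67.8, with a change of 0.33 (SE 0.28, adjusted p = 0.595). The third (1452539_a_at), of the kind that reads transcript variants, lay near the control level, at 18.2 to 41.9 against 13.3 to 49.0, with a change of 0.05 (SE 0.35). The fourth (1426079_at) was under the intensity filter, at 0.310 to 13.8 against 0.622 to 27.2, and was above the brightest bacterial control on 1 array only.

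**Figure D2:**
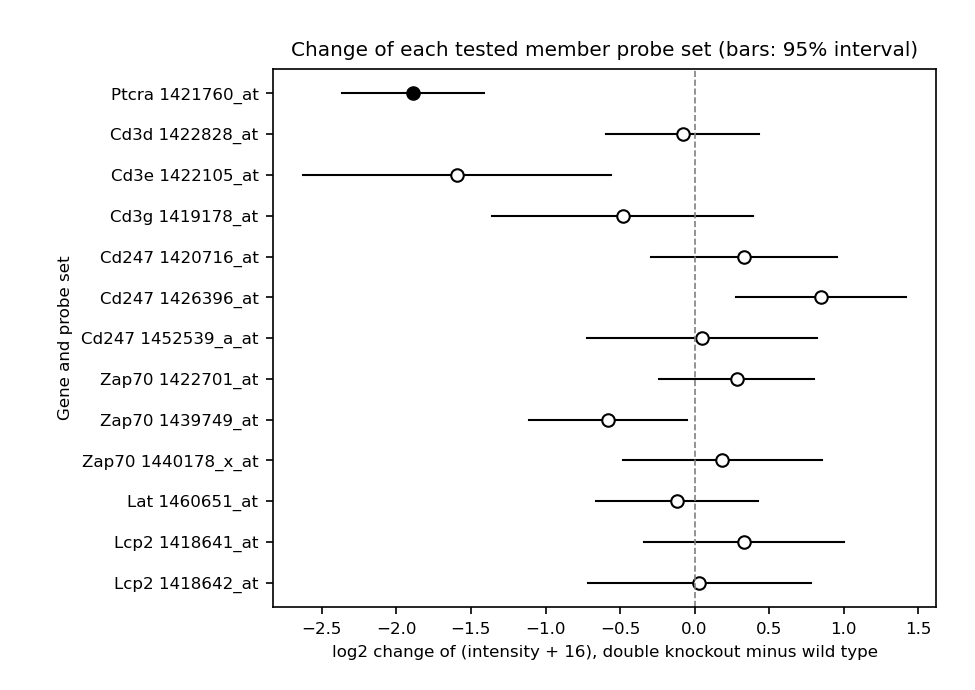
The log2 change of intensity plus 16 (double knockout minus wild type) for each of the 13 tested member probe sets, with its 95% interval from limma; the filled point passed an adjusted p of 0.05 and open points did not. Ptcra is at -1.89, the open point of Cd3e at -1.59 has the widest interval, and the brightest Cd247 probe set is at 0.85.

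Because the scaling of an array cancels in a difference within the array, Ptcra was also set against the CD3 chains. On the log2 scale of intensity plus 16, Ptcra minus the mean of the 4 CD3 chains was 1.22, 0.95 and 1.02 in wild type replicates 1 to 3, but -0.65, -0.40 and -0.44 in double knockout replicates 1 to 3. The 3 arrays of each group lay close together, closer than for Cd3e or Cd3g alone. The groups differed by -1.56, from 1.06 ± 0.14 to -0.50 ± 0.13 (mean and SD, n = 3 each). The exact two-sided permutation test gave p = 0.1, the smallest that 3 against 3 arrays allow. Against single chains the difference was -1.80 for Cd3d and -2.73 for Cd247 (exact p = 0.1 each), -1.40 for Cd3g (exact p = 0.2) and -0.29 for Cd3e (exact p = 0.7). Ptcra was thus lower relative to Cd3d and Cd247 on each array labelled double knockout than on any wild type array, whereas relative to Cd3e and Cd3g the groups overlapped. These 4 comparisons have Benjamini-Hochberg adjusted p-values of 0.2 for Cd3d and Cd247, 0.267 for Cd3g and 0.7 for Cd3e.

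**Figure D3:**
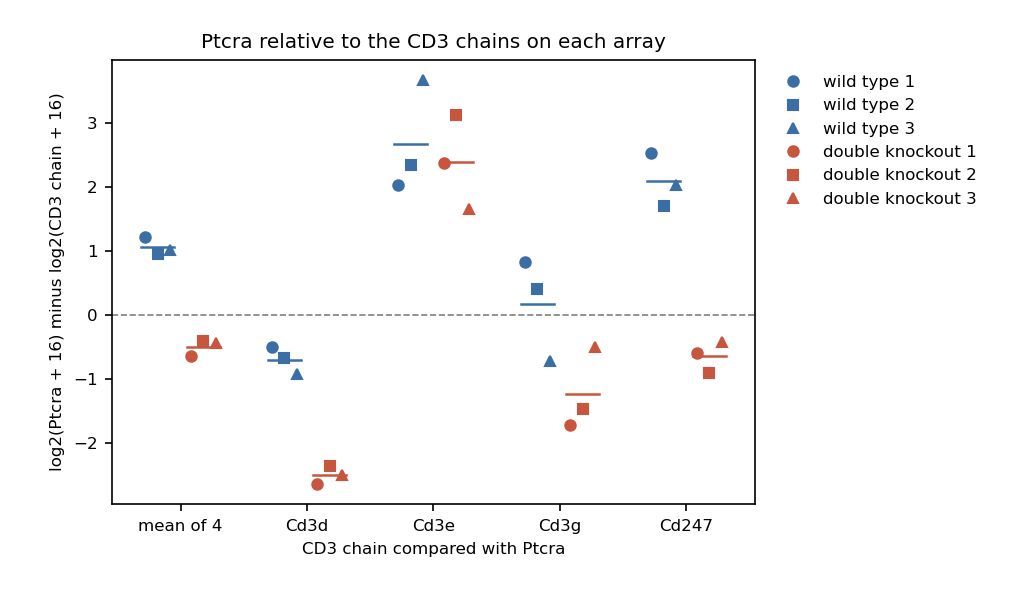
Difference between Ptcra and the CD3 chains on each array, in log2 of intensity plus 16, for the mean of the 4 chains and for each chain alone, with lines at group means. For the mean of 4 the wild type arrays sit between 0.95 and 1.22 and the arrays labelled double knockout between -0.65 and -0.40, while the Cd3e points of the groups overlap.

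None of the probe sets of Zap70, the kinase that docks on the phosphorylated chains, passed, and they did not point one way. The brightest (1440178_x_at), whose probes may also read other transcripts, gave 453, 360.1 and 222 in wild type and 350.0, 317 and 509.8 in double knockout replicates, a change of 0.19 (SE 0.31, 95% interval -0.48 to 0.86, adjusted p = 0.802). A second (1422701_at) read 156, 167 and 132 against 171, 192 and 207. These groups did not overlap by a narrow margin, with a change of 0.28 (SE 0.24, adjusted p = 0.585). The third (1439749_at) was the reverse, at 98.1, 81.7 and 101 against 41.6, 68.4 and 67.8, again without overlap. Its change of -0.58 (SE 0.24, interval -1.11 to -0.05) did not pass either (adjusted p = 0.22). Probe sets of Zap70 thus disagreed in direction.

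Neither adaptor gene passed. Lat, the membrane scaffold on which the signal branches, gave 1731, 2797 and 2565 in wild type replicates and 2294, 1893 and 2329 in double knockout replicates. All 3 of the latter lay inside the wild type range, and the change was -0.12 (SE 0.25, 95% interval -0.66 to 0.43, adjusted p = 0.855). The brighter probe set of Lcp2 (1418641_at) read 179, 240.1 and 164 against 283, 164 and 327, a change of 0.33 (SE 0.31, interval -0.34 to 1.00, adjusted p = 0.635). The dimmer (1418642_at) read 72.7, 159 and 85.8 against 126, 65.9 and 135, a change of 0.03 (SE 0.34, interval -0.72 to 0.78). On both Lcp2 probe sets double knockout replicate 2 had the lowest value of the 6 arrays and the groups overlapped. These intervals reach from -0.66 to 0.43 for Lat and, over both probe sets, from -0.72 to 1.00 for Lcp2, so shifts within them are not shown to be absent.

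Over all members, 13 of 14 probe sets passed the intensity filter, 1 was called lower and 0 higher, and 4 had an unadjusted p under 0.05 (Ptcra, Cd3e, Cd247 on 1426396_at and Zap70 on 1439749_at). Across the array 5.03% of tested probe sets were called, 2.11% lower and 2.91% higher, so the share of members called is near the background. The share of all tested probe sets with an unadjusted p under 0.05 was not counted. The groups did not overlap on 4 of the 13, namely Ptcra and 1 Zap70 probe set lower and 1 probe set each of Cd247 and Zap70 higher, against 24.3% of all tested probe sets (11% lower and 13.2% higher). The median change of the 13 was 0.03, and of all tested probe sets 0.00. Without wild type replicate 3, Cd3e joined Ptcra and Cd247 was called higher, giving 2 lower and 1 higher. Without double knockout replicate 3, Ptcra and Cd3e were called lower.

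Around this core, genes of T cell receptor signalling were followed in 5 lists by the role of their products. Each gene stood by its probe set of highest mean. Of 105 listed symbols 86 were named on the array and 83 tested, of which 7 were called higher and 0 lower, and 27 had an unadjusted p under 0.05. Over all 13187 genes, 6.26% were called, 3.72% higher and 2.54% lower, against 8.43% of the list genes tested. By list, the called share was 18.5% for adaptors and scaffolds, 6.25% for kinases and phosphatases, 3.7% for effectors and ubiquitin ligases and 0% for the others. The lists were chosen with earlier results of these data known, so these shares are not independent of the data. The share of all genes with an unadjusted p under 0.05 was not counted, so that count has no background here. Groups did not overlap in 25 list genes that were higher and 5 that were lower, against 26.4% of all genes (14.3% higher and 12% lower). The median change was 0.27 over these lists and -0.01 over all genes. The count rested on the arrays used: it was 13 higher and 4 lower without wild type replicate 3, and 1 higher and 0 lower without double knockout replicate 1. It was 4, 4, 2 and 4 higher without wild type replicates 1 and 2 and double knockout replicates 2 and 3, in that order, with 1 lower in the last case.

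**Figure D4:**
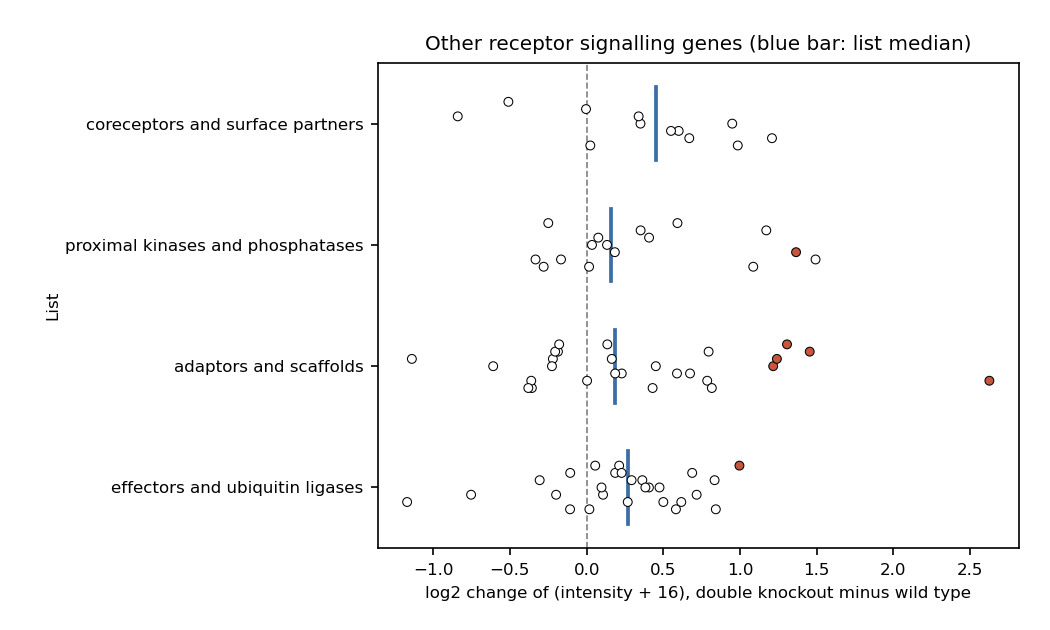
The log2 change of intensity plus 16 (double knockout minus wild type) of each tested gene in 4 lists of receptor signalling genes; filled points passed an adjusted p of 0.05 and blue bars are list medians. The 7 filled points all lie on the right, 5 of them among adaptors and scaffolds, and the list medians are between 0.16 and 0.45.

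Adaptors and scaffolds held most of the calls, with 5 of 27 tested genes higher and 0 lower (median change 0.19). Sla2, the Src-like adaptor that dampens antigen receptor signalling, stood at 321, 368 and 401 in wild type replicates and at 2552, 1971 and 2562 in double knockout replicates. Every array labelled double knockout was far above every wild type array. Sla2 rose by 2.63 (SE 0.24, adjusted p = 0.000115) and was called without any 1 array, although another probe set (1437504_at) gave 0.53 (SE 0.26, adjusted p = 0.309). Dok2, an inhibitory docking protein of T cells, rose from 97.6, 118 and 115 to 276, 331 and 240.3, by 1.22 (SE 0.24, adjusted p = 0.0148). Gab2, a scaffold that binds the phosphatase SHP2, rose from 56.5, 89.8 and 55.0 to 229, 284 and 142, by 1.45 (SE 0.30, adjusted p = 0.0174). Its dimmer probe sets gave -0.45 and -0.54 and did not pass. Grap, a relative of the adaptor GRB2, rose from 83.2, 132 and 228 to 459, 371 and 289, by 1.31 (SE 0.34, adjusted p = 0.0473). Sit1, a transmembrane adaptor that also binds SHP2, rose from 290.5, 460.0 and 706 to 1166, 1364 and 867, by 1.24 (SE 0.32, adjusted p = 0.0483). In Grap and Sit1 the wild type arrays spread widely and wild type replicate 3 was nearest to the other group. Trat1, an adaptor that associates with the receptor and zeta chain, was named after its values were seen. It read 1531, 1389 and 1096 against 568, 398 and 954, a change of -1.14 (SE 0.32, adjusted p = 0.0617), and its other probe set (1437561_at) fell by 1.36 (SE 0.29, adjusted p = 0.022). Nck2 and Skap1, also named after their values were seen, had brightest probe sets that did not pass (-0.22 and -0.205). A dimmer probe set of each rose, by 1.78 (1429481_at, adjusted p = 0.00856) and 1.74 (1440782_at, adjusted p = 0.00757). The Nck2 one had a wild type mean of 8.23.

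Among kinases and phosphatases 1 of 16 tested genes was called, and it was higher (median change 0.16). Ptpn22, the phosphatase that removes activating phosphates from LCK and ZAP-70, rose from 223, 156 and 150.3 to 456, 533 and 452, by 1.37 (SE 0.24, adjusted p = 0.00826). The TEC family kinase genes Txk and Tec and the protein kinase C theta gene Prkcq did not pass, with changes of 1.49 ± 0.41, 1.09 ± 0.35 and 1.17 ± 0.43 (change and SE) and adjusted p of 0.0606, 0.106 and 0.159. Txk was dim, at 1.39, 34.3 and 25.9 in wild type replicates, and lay above the brightest bacterial control on 4 arrays. The Prkcq groups overlapped, at 414 to 1058 against 753 to 2534. Syk and Fyn, kinases with roles like those of ZAP-70 and LCK, were named after their values were seen. They read 256 to 479 and 141 to 247 on the wild type arrays. On the arrays labelled double knockout they read 262 to 349 and 205 to 265, with changes of -0.25 (SE 0.29) and 0.18 (SE 0.27). The groups overlapped in both.

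Effectors and ubiquitin ligases had 1 call among 27 tested genes (median change 0.27). Ubash3a, a suppressor of receptor signalling that acts on ZAP-70, rose from 293, 348 and 309 to 618, 614 and 739, by 1.00 (SE 0.24, adjusted p = 0.0334), and its other probe set rose by 1.32 (SE 0.28, adjusted p = 0.0197). Its relative Ubash3b (0.84, SE 0.27) and Malt1, a signalling protease (0.72, SE 0.25), did not pass (adjusted p = 0.105 and 0.142). Rasgrp1, which loads RAS downstream of LAT, read 877, 793 and 375 against 280.1, 247 and 314, a change of -1.17 (SE 0.32, adjusted p = 0.0609). Its groups did not overlap and wild type replicate 3 was the nearest to the other group, while its dimmer probe sets gave 0.35, -0.40 and -0.36.

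**Figure D5:**
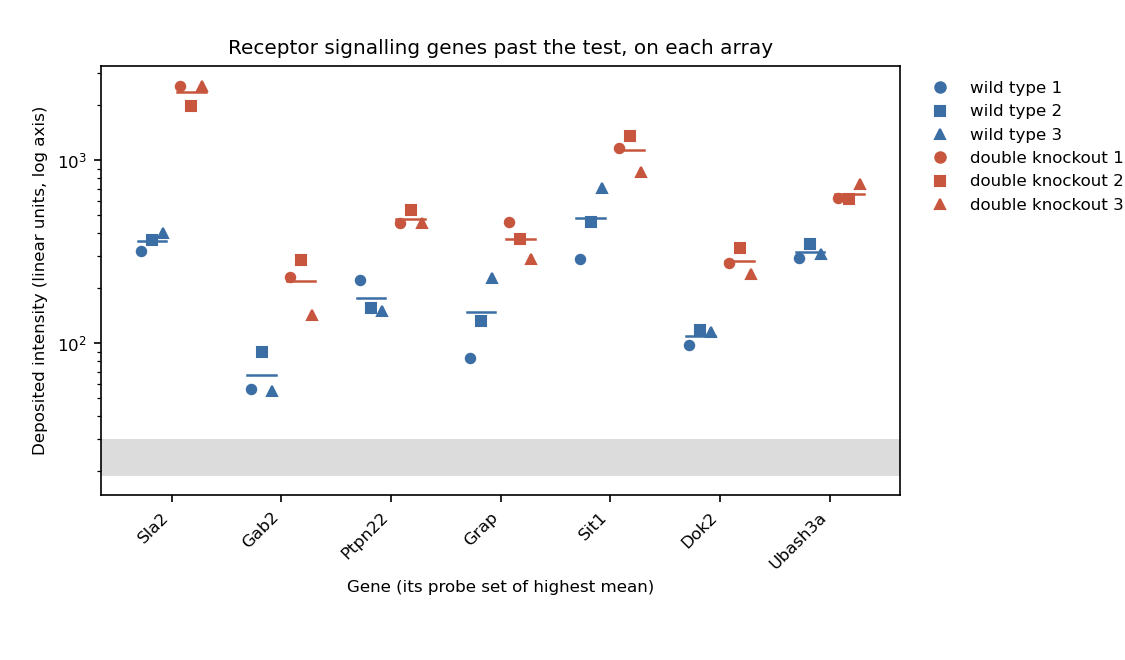
Deposited intensity (log axis) on each array of the 7 receptor signalling genes that passed the test, with lines at group means and a grey band at the range of the brightest bacterial control (19.0 to 29.9). In each gene all 3 arrays labelled double knockout lie above all 3 wild type arrays, with the widest gap in Sla2 (321 to 401 against 1971 to 2562).

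The calls of these 7 genes differed in how they held when 1 array was left out. Ptpn22 was lost without double knockout replicate 1 (adjusted p = 0.0639), and Dok2 without double knockout replicate 1 or 2 (at most 0.0961). Gab2 was lost without wild type replicate 1 or double knockout replicate 1 or 2 (at most 0.098). Grap, Sit1 and Ubash3a were lost without any 1 array other than wild type replicate 3 (adjusted p up to 0.223, 0.203 and 0.167).

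None of 12 tested coreceptors and surface partners was called by limma (median change 0.45). An unadjusted p under 0.05 was found in 6 of them, a count without a background over all genes. The costimulatory receptor gene Icos had a change of 1.21 (SE 0.34, adjusted p = 0.0665), and its dimmer probe set (1421930_at) rose by 1.34 (SE 0.26, adjusted p = 0.0119). Cd2, an adhesion receptor (0.98, SE 0.32), and Slamf6 (0.95, SE 0.32) did not pass either (adjusted p = 0.108 and 0.12). Thy1, the pan-T surface glycoprotein gene, read 9525, 6550.0 and 4596 against 3341, 3780.3 and 4089, a change of -0.84 (SE 0.25, adjusted p = 0.081). Of 16 symbols for receptor loci and surrogate chains only 2 were named on the array. Of these, Tcra lay under the filter and Fcer1g, the chain that can replace zeta, did not pass, at 0.77 with an SE of 0.43 (adjusted p = 0.371).

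Genes whose symbol is a clone identifier were passed over here and for the CD3 chains, though the 13186 genes compared include them. Of the rest, those whose brightest probe set followed Ptcra most closely over the 6 arrays were Caskin2, Slc30a8, Trmt10a, Sf3b2 and Zfp783. Their Pearson correlations were 0.9988, 0.9963, 0.9959, 0.9958 and 0.9956. The 6 points of Ptcra form 2 separate groups of 3 arrays and share the scaling of each array. Slc30a8 was under the brightest bacterial control of each array, at 18.9 to 23.3 in wild type replicates and lower in the others, so its correlation is one of values not above background. Caskin2 read 73.8, 65.6 and 78.9 against 20.0, 19.7 and 26.8, a change of -1.24 (SE 0.23, adjusted p = 0.0115), and Trmt10a fell by 1.28 (SE 0.23, adjusted p = 0.00868). Sf3b2 moved in step only after each array was centred on its median, and by little, with a change of -0.09 (SE 0.17). Its deposited intensities overlapped, at 5208, 4823 and 5162 against 4666, 4940 and 4861. The mean of the CD3 chains was followed most closely by Coa3, Tspan10, Sgsm2, Inafm2 and Dbp (0.9965, 0.9926, 0.9892, 0.9877 and 0.9846), none of which was called by limma. Of these, Tspan10, at 4.77 to 28.7 over the 6 arrays, also lay near or under the bacterial controls.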

How the data were processed

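Double negative thymocytes were profiled on 6 single-colour arrays. The authors deposited intensities on a linear scale. The trimmed mean of every array is 150.0, so the deposited arrays had been scaled alike. The sources used here name no software, probe summary or scanner step. Precision is limited by the number of arrays. Of 45101 probe sets, 64 controls were left out. Of the rest, 34945 have 1 symbol in the platform annotation, 932 several and 9160 none here, and symbols were updated through RefSeq (GRCm38.p6, 34741 matched). An offset of 16 was added, log2 taken and each array centred on its median (medians differed by 0.126), so changes of dim genes are understated. Dim probe sets (mean log2 under 4.87, the 40th percentile) were left out. The test was limma 3.58.1 under R 4.3.3, with lmFit, an eBayes intensity trend and Benjamini-Hochberg adjustment. Named are all member probe sets, up to 4 genes of smallest p in a list with all calls where 5 or fewer, and the 5 genes most like Ptcra and the CD3 mean. Genes whose symbol is a clone identifier were left out of these 5. Members and lists were chosen with earlier results of these data known. On simulated data with 27022 probe sets, 200 of them changed, the test recovered 0% of changes of 1 and 72.5% of changes of 2 (0 and 5 false calls). Alternatives covered centring, quantile normalization, offset, filter, trend, array weights, replicate block, probe set choice and leaving out each array. Replicate numbers were not used to pair the arrays in the main test.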

Additional observations from a re-analysis of the deposited data

How the results depend on the processing

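The fall of Ptcra kept its direction and its call under all 15 alternatives (log2 change -2.02 to -1.76). Called member probe sets were 1 lower and 0 higher in the main analysis, 2 lower and 1 higher with array weights, and 1 to 2 lower and 0 to 1 higher with 1 array left out. The other alternatives left these counts at 1 and 0. Called pathway genes were 4 lower and 17 higher with array weights, against 0 and 7 in the main analysis. With the median of a gene's probe sets 1 was lower and 5 higher, and with 1 array left out 0 to 4 were lower and 1 to 13 higher. Directions of members that did not pass turned: with array weights Cd3d was 0.08, and with quantile normalization Lcp2 (1418642_at) was -0.009. With 1 array left out, changes ranged from -0.23 to 0.12 for Cd3d, -0.86 to 0.045 for Cd3g, -0.19 to 0.43 for Cd247 (1452539_a_at), -0.10 to 0.38 for Zap70 (1440178_x_at), -0.35 to 0.05 for Lat and -0.19 to 0.36 for Lcp2 (1418642_at). Ptcra relative to a single CD3 chain was -1.80 (Cd3d), -0.29 (Cd3e), -1.40 (Cd3g) and -2.73 (Cd247), against -1.56 for their mean, which was -1.62 to -1.48 with 1 array left out. The cause of these shifts was not tested. With the replicate number as a block, Ptcra was -1.89 (SE 0.26, adjusted p = 0.00542), member counts stayed at 1 and 0, and 2 pathway genes were higher. Same-numbered arrays deviated from their group means with correlations of -0.05, -0.13 and -0.29, and differently numbered arrays with -0.185 to 0.255. Deviations within a group of 3 arrays depend on each other. Whether same-numbered arrays share a preparation therefore cannot be told from these values. With 3 arrays a group, changes of 1 on the log2 scale were not recovered in the simulated data. Fewer probe sets were changed there than the 1358 called here, so that result does not set the smallest change that can be called. In the limma test Ubash3a was called at 1.00 (adjusted p = 0.0334), whereas Txk, dim on the wild type arrays, was not at 1.49 (adjusted p = 0.0606).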
